A study of Mus musculus with 4 samples.

Results

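The Hox genes were examined in mouse mammary tumor cells with and without the kinases JNK1 and JNK2. Members were the rows of the deposited expression table whose symbol is Hox, a cluster letter from a to d and a paralog number, which gave 38 of 38713 genes, and 37 of these are described. The 37 comprised 10 genes of the Hoxa cluster, 10 of Hoxb, 9 of Hoxc and 8 of Hoxd. RNA sequencing had been performed on 4 established cell lines, each derived from a separate mammary tumor of a C57BL/6 mouse, with 1 library per line. The 2 JNK_WT lines (JNK_WT replicates 1 and 2) arose in mice in which Cre recombinase, expressed from the mammary Wap promoter, had removed floxed Trp53. The 2 JNK_KO lines (JNK_KO replicates 1 and 3) arose in mice in which the same transgene had also removed floxed Mapk8 and Mapk9, the genes for JNK1 and JNK2, so loss of p53 was common to both groups. Tumor cells were dispersed with collagenase, kept on collagen I for 2 passages and then grown on tissue culture plastic. With 2 lines a group, a property of a line and an effect of its genotype cannot be told apart.

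Hox proteins are homeodomain transcription factors that give cells a position along the head to tail axis of the embryo. Mammals carry 4 clusters of them, and within a cluster the order of the genes on the chromosome follows the order in which they are switched on, with low paralog numbers first and toward the head. Hox proteins bind DNA together with the TALE homeodomain proteins of the Pbx and Meis families, while Polycomb complexes keep silent Hox clusters off and Trithorax complexes keep active ones on. Retinoic acid, through its nuclear receptors, and the Cdx proteins are well known inducers of Hox genes. Adult tissues, the mammary gland among them, keep a pattern of Hox expression that reflects their position in the body.

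The summed FPKM of the 37 genes was 14.2 and 17.2 in JNK_WT replicates 1 and 2, 2.60 in JNK_KO replicate 1 and 3.73 in JNK_KO replicate 3. FPKM, fragments counted per length of transcript and per mapped fragment of the library, is a level corrected for gene length. Hox transcripts were scarce in every line. The highest value of any member was 6.10 FPKM, for Hoxa3 in JNK_WT replicate 2, whereas the median of all 12998 genes tested lay between 12.8 and 13.96 FPKM in the 4 libraries. Of the 37 genes, 8 were listed at 0 in all 4 libraries, 23 had a value above 0 but stayed under 1 FPKM throughout, and 6 reached 1 FPKM in at least 1 library. These were Hoxa2, Hoxa3, Hoxa4, Hoxa5, Hoxa7 and Hoxb2. None reached 1 FPKM in all 4 libraries. By library, 4 and 5 members reached 1 FPKM in JNK_WT replicates 1 and 2, 0 in JNK_KO replicate 1 and 1 in JNK_KO replicate 3, while 32.0% to 33.3% of all genes did so in each library. In a culture, fewer cells that express a gene and less of its RNA per cell cannot be told apart.

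**Figure D1:**
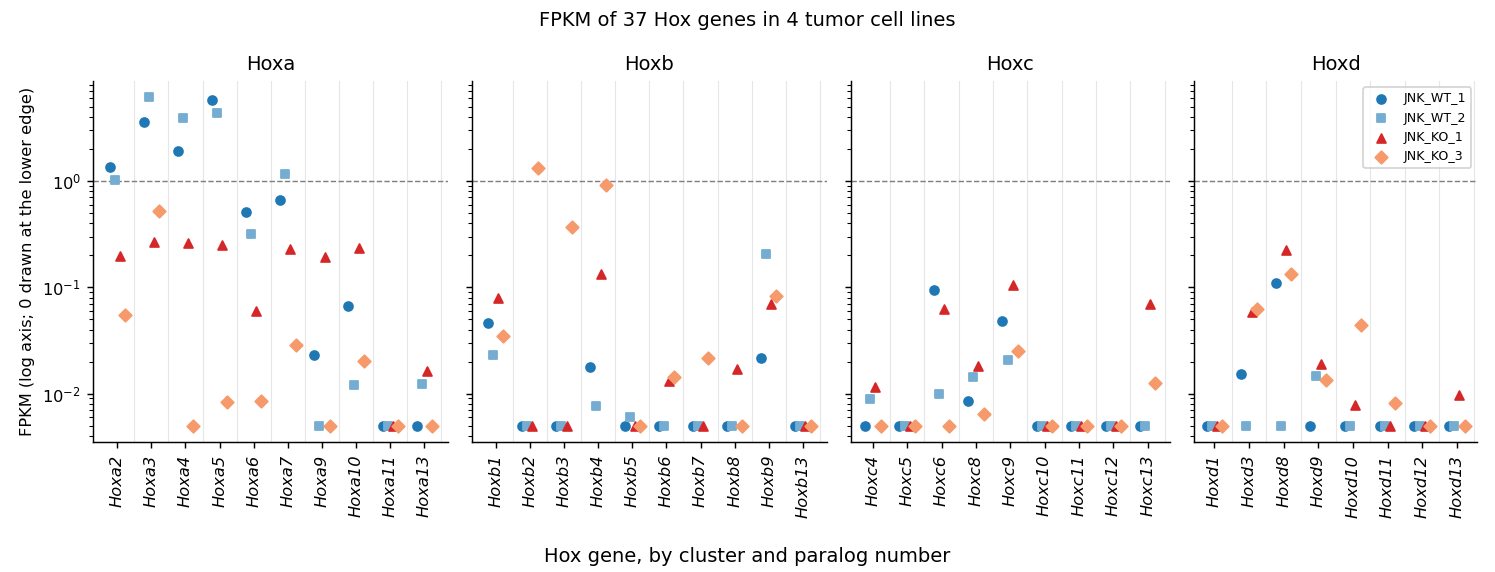
FPKM of each of the 37 Hox genes on a log axis, by cluster and paralog number, with 1 point per library; a value of 0 is drawn at the lower edge and the dashed line marks 1 FPKM. Points above the line were found for 5 Hoxa genes in JNK_WT libraries and for Hoxb2 in JNK_KO replicate 3, whereas all Hoxc and Hoxd genes lay at or under 0.223 FPKM.

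Which cluster supplied the transcripts differed between the lines. The 10 Hoxa genes summed to 13.8 and 16.9 FPKM in the JNK_WT libraries, or 97.4% and 98.2% of the sum over the 37 genes. In JNK_KO replicates 1 and 3 they summed to 1.70 and 0.642 FPKM, or 65.5% and 17.2% of that sum. The mean Hoxa sum was 15.3 ± 2.17 FPKM (SD, n = 2) for JNK_WT and 1.17 ± 0.751 FPKM (SD, n = 2) for JNK_KO, which are 13.1-fold apart. Hoxb summed to 0.0850, 0.244 and 0.314 FPKM in JNK_WT replicates 1 and 2 and JNK_KO replicate 1, and to 2.78 FPKM in JNK_KO replicate 3, where it made up 74.6% of the sum. The Hoxc sums lay between 0.0440 and 0.268 FPKM and the Hoxd sums between 0.0147 and 0.318 FPKM.

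**Figure D2:**
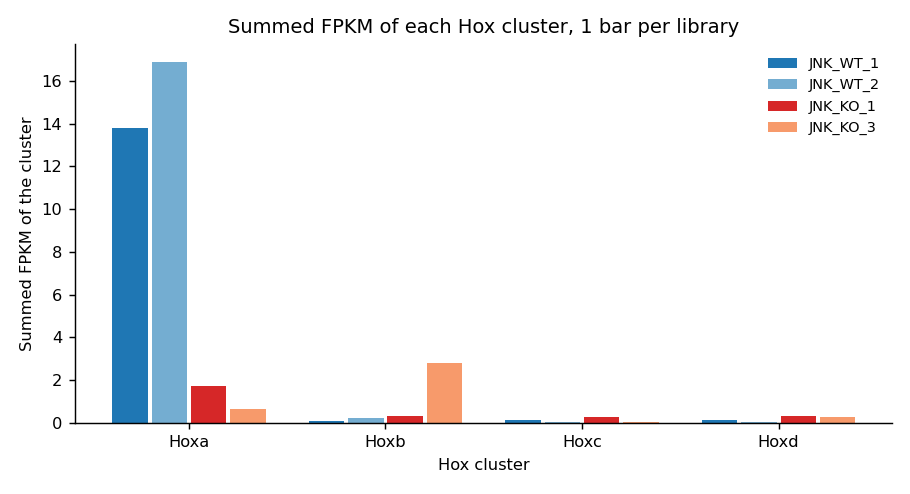
Summed FPKM of each Hox cluster (linear axis from 0), with 1 bar per library. The Hoxa bars stood at 13.8 and 16.9 FPKM in the JNK_WT libraries against 1.70 and 0.642 FPKM in the JNK_KO libraries, and the only Hoxb bar above 1 FPKM, at 2.78, belonged to JNK_KO replicate 3.

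Grouped by paralog number across the 4 clusters, the 7 described genes of paralog groups 1 to 3 summed to 4.98 and 7.14 FPKM in the JNK_WT libraries and to 0.601 and 2.38 FPKM in JNK_KO replicates 1 and 3. Groups 4 to 8 summed to 9.04 and 9.79 FPKM in JNK_WT cells and to 1.28 and 1.14 FPKM in the JNK_KO lines. The 16 genes of groups 9 to 13, which are used toward the tail and in the distal limb and urogenital tract, summed to between 0.159 and 0.723 FPKM in the 4 libraries, and none of them exceeded 0.233 FPKM.

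Within the Hoxa cluster (Hoxa2 to Hoxa13, GRCm38, chromosome 6, 52162417 to 52260880, minus strand) the 6 genes from Hoxa2 to Hoxa7 were all lower in both JNK_KO libraries than in either JNK_WT library. Together they summed to 15.3 ± 2.21 FPKM (SD, n = 2) for JNK_WT and 0.943 ± 0.454 FPKM (SD, n = 2) for JNK_KO, 16.2-fold apart. With each library left out, the ratio ran from 12.1 (without JNK_KO replicate 3) to 24.6 (without JNK_KO replicate 1). The next genes, Hoxa9 to Hoxa13, summed to 0.0568 ± 0.0460 and 0.231 ± 0.298 FPKM (SD, n = 2 each), and the groups overlapped for each of these 4 genes. The division after Hoxa7 was drawn after the values were seen.

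Hoxa7 and Hoxa9 are neighbours on either side of that division, and Hoxa5 had the largest difference of any member tested. The 250 bases before the RefSeq start of each are therefore shown, 5′ to 3′ on the minus strand of GRCm38.p6, with CpG dinucleotides, the sites of vertebrate DNA methylation, in capitals. They lie at chr6:52204588-52204837 (Hoxa5), chr6:52218574-52218823 (Hoxa7) and chr6:52227371-52227620 (Hoxa9).
Hoxa5: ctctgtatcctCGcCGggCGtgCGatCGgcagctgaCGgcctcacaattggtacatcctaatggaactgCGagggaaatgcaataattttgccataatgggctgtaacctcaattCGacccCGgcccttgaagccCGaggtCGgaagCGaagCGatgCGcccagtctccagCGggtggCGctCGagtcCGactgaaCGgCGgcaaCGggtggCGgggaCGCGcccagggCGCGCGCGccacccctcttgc
Hoxa7: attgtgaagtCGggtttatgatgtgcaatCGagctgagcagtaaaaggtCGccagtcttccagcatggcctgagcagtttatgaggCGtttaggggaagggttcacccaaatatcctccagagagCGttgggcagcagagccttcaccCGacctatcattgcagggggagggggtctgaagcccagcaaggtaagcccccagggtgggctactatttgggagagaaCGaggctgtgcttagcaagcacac
Hoxa9: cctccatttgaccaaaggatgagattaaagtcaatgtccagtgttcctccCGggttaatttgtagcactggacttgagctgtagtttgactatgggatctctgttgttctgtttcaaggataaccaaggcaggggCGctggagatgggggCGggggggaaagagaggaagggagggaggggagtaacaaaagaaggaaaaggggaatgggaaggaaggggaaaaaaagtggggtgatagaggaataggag

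The Hoxa5 window held 28 CpG, the Hoxa7 window 7 and the Hoxa9 window 3, where the median over the 32851 promoters of the RefSeq table was 6. As many CpG as in Hoxa5 were present in 7.61% of all promoters, as many as in Hoxa7 in 46.3% and as many as in Hoxa9 in 71.0%. Methylation was not measured. Of the 37 genes, 21 had a promoter in the table, with 23 windows in all. The AP-1 motif TGANTCA, bound by Jun and Fos proteins, occurred on either strand in 1 of the 23 windows, before Hoxd11, and in 6.75% of all promoters. AGGTCA, which is only a half-site of the retinoic acid receptor motif, occurred in 5 of the 23 (Hoxb4, Hoxc4, Hoxd3, Hoxd8 and Hoxd10) and in 14.02% of all promoters. The composite Hox and Pbx motif TGATNNAT occurred in 4 of the 23 (Hoxa2, Hoxb1, Hoxb8 and Hoxd11) and in 7.68% of all promoters. These are letter matches in a short window.

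The Hoxa genes are described in order of paralog number. Hoxa2, a regulator of the pharyngeal arches, was measured at 1.36 and 1.01 FPKM in the JNK_WT lines, against 0.198 and 0.0554 FPKM in the JNK_KO lines. The log2 difference, JNK_KO minus JNK_WT on log2(FPKM + 1), came to -0.96 (SE 0.30, limma adjusted p 0.546). Hoxa3, needed for the thymus and parathyroid, was measured at 3.55 and 6.10 FPKM in the JNK_WT lines, against 0.266 and 0.520 FPKM in the JNK_KO lines, 12.3-fold apart on average. Its log2 difference came to -2.04 (SE 0.37, limma adjusted p 0.290). The annotated Hoxa3 gene runs across Hoxa4, Hoxa5 and Hoxa6 on the same strand without sharing exon bases with them.

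Hoxa4 was measured at 1.89 and 3.92 FPKM in JNK_WT cells, at 0.261 FPKM in JNK_KO replicate 1, and was listed at 0 in JNK_KO replicate 3. Its log2 difference came to -1.75 (SE 0.40, limma adjusted p 0.401). Hoxa5, which acts in the lung and the mammary gland, showed the widest separation. It was measured at 5.74 and 4.34 FPKM in JNK_WT replicates 1 and 2, while JNK_KO replicates 1 and 3 had 0.249 and 0.00841 FPKM. Its log2 difference came to -2.42 (SE 0.33, limma adjusted p 0.191).

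Hoxa6 and Hoxa7, genes of the trunk, were not tested, since neither reached 1 FPKM in at least 2 libraries. Hoxa6 was measured at 0.513 and 0.319 FPKM in the JNK_WT lines, against 0.0600 and 0.00854 FPKM in the JNK_KO lines. Hoxa7 was measured at 0.664 and 1.17 FPKM in the JNK_WT lines, against 0.229 and 0.0289 FPKM in the JNK_KO lines. Of the posterior genes of the cluster, Hoxa9 and Hoxa10 were highest in JNK_KO replicate 1, at 0.192 and 0.233 FPKM, Hoxa13 did not exceed 0.0162 FPKM, and Hoxa11 was listed at 0 in all 4 libraries.

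The order of the Hoxa levels differed between the lines. In JNK_WT replicate 1 Hoxa5 was highest, followed by Hoxa3 and Hoxa4, whereas in JNK_WT replicate 2 Hoxa3 was highest, followed by Hoxa5 and Hoxa4. In both JNK_KO libraries Hoxa3 was highest. In JNK_KO replicate 1 Hoxa4 and Hoxa5 stood close to it, while in JNK_KO replicate 3 the next gene was Hoxa2 at 0.0554 FPKM. The JNK_WT means of Hoxa5 (5.04 ± 0.990 FPKM) and Hoxa3 (4.83 ± 1.81 FPKM, both SD, n = 2) differed by less than the larger SD, so their order was not resolved. The mean of Hoxa4 was 2.91 ± 1.43 FPKM (SD, n = 2), and its values overlapped those of Hoxa3 between the lines. Hoxa2, at 1.19 ± 0.250 FPKM (SD, n = 2), was below Hoxa4 in both. Hoxa5, at the head of the list in JNK_WT replicate 1, was near the detection floor in JNK_KO replicate 3, where the lowest Hox value above 0 was 0.00647 FPKM.

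In limma over all 12998 genes tested, 0 genes were called at an adjusted p under 0.05 with an absolute log2 difference over 0.75 (0% of genes), and 992 genes (7.63%) had an unadjusted p under 0.05. Among the described Hox genes 4 were tested, Hoxa2 to Hoxa5, and 0 were called. All 4 had an unadjusted p under 0.05 and a log2 difference of over 0.75 with JNK_KO lower, which 6.43% of the genes tested had. Each of the 4 entered the test only because it was above 1 FPKM in the JNK_WT libraries, so that count is not read against the share over all genes. The smallest p that an exact permutation of 2 libraries against 2 can give is 0.333. Over the 37 members, without a filter, the groups did not overlap and were lower in JNK_KO for 6 genes, beside 9.05% of the 38713 genes and 22.7% of the 1941 genes of chromosome 6. They did not overlap and were higher in JNK_KO for 6 genes, beside 12.0% of all genes. The 6 lower genes were Hoxa2 to Hoxa7. The 6 higher genes were Hoxb4, Hoxb6, Hoxc13, Hoxd3, Hoxd8 and Hoxd10, of which all but Hoxb4 stayed under 0.224 FPKM in every library. The count of higher genes was larger with any 1 library left out, but groups then separate more easily, and no share over all genes is given for that setting.

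The genes on the opposite strand inside the Hoxa cluster were lower in JNK_KO cells over the same stretch. There were 5 of them, found by position after the Hox values were seen. The groups did not overlap and were lower in JNK_KO for 4, beside 22.7% of all chromosome 6 genes and 9.05% of all genes. Of the 5, 3 were tested, 0 were called by limma and 3 had an unadjusted p under 0.05, which 7.63% of the genes tested had. Of these 3, 5730446D14Rik and 2700086A05Rik entered the test only because they were above 1 FPKM in the JNK_WT libraries. The count is therefore not read against the share over all genes. Gm15050 was measured at 5.49 and 5.29 FPKM in the JNK_WT lines, against 1.57 and 2.40 FPKM in the JNK_KO lines. 5730446D14Rik, which shares 503 exon bases with Hoxa3, was measured at 2.14 and 4.66 FPKM in the JNK_WT lines, against 0.355 and 0.163 FPKM in the JNK_KO lines. 2700086A05Rik, which shares 586 exon bases with Hoxa7 and 297 with Hoxa3, was measured at 1.30 and 3.54 FPKM in the JNK_WT lines, against 0.316 and 0.0209 FPKM in the JNK_KO lines. As with Hoxa3, Hoxa4 and Hoxa7, both of these were higher in JNK_WT replicate 2 than in JNK_WT replicate 1. Hoxa2, Hoxa5, Hoxa6 and Gm15050 went the other way between these 2 libraries. 5730596B20Rik stayed at or under 0.164 FPKM, and Hoxa11os, which overlaps Hoxa11, had 0.0254 FPKM in JNK_KO replicate 1 and was listed at 0 in the others. The libraries were not stated to keep strand, and reads of an overlapping pair on opposite strands then cannot be told apart.

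**Figure D3:**
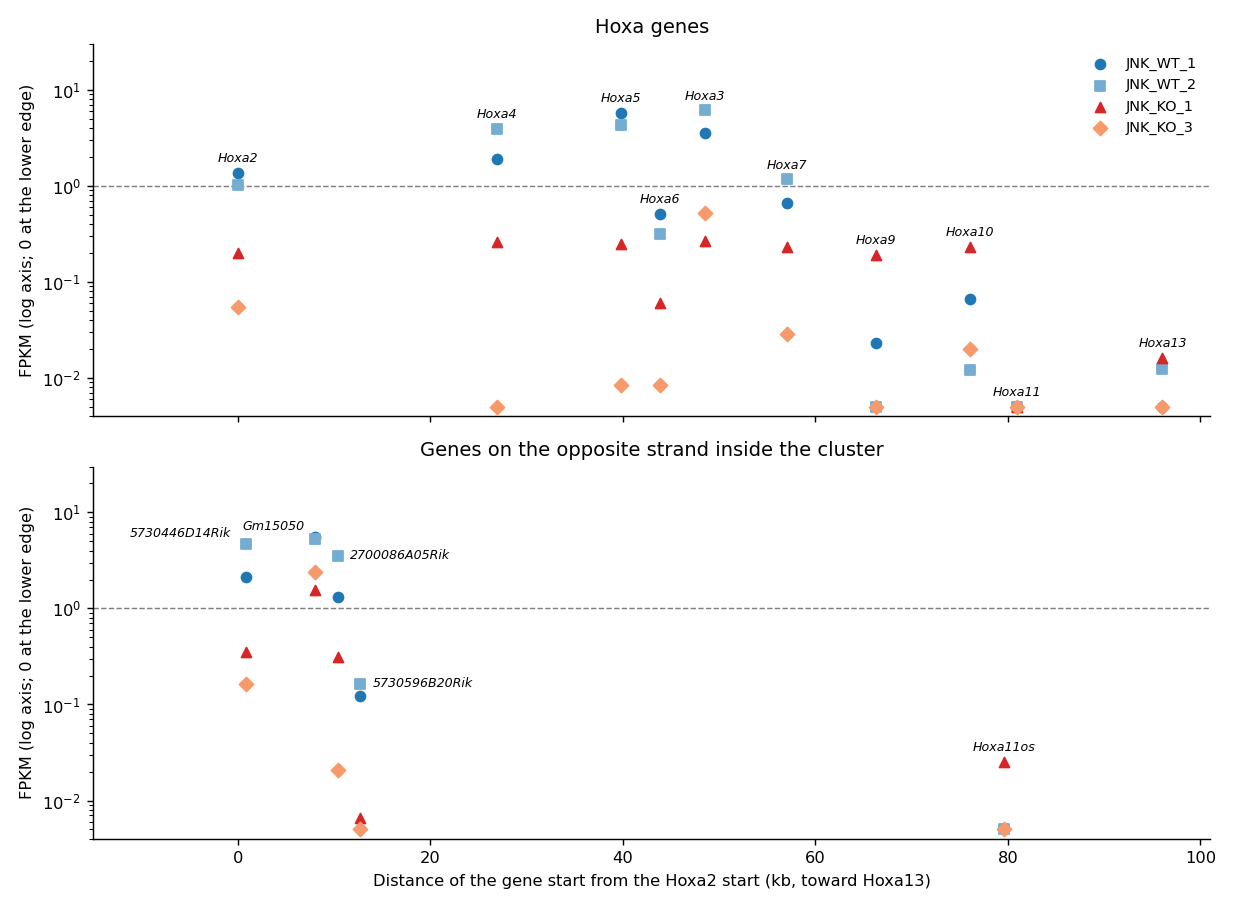
FPKM (log axis, 0 at the lower edge) of the Hoxa genes, above, and of the genes on the opposite strand inside the cluster, below, against the distance in kb of the annotated gene start from the Hoxa2 start, with 1 point per library and a dashed line at 1 FPKM. Hoxa3 is placed at its outermost annotated start, beyond Hoxa6. The JNK_WT points lay above the JNK_KO points from Hoxa2 to Hoxa7 and for 4 of the 5 opposite-strand genes, and not from Hoxa9 onward.

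The tested genes beside the Hoxa cluster were also lower in JNK_KO cells. Within 1 Mb of it 23 genes were counted and 9 were tested. All 9 had a difference below 0, and for 8 the groups did not overlap, beside 56.2% of the 628 chromosome 6 genes tested and 16.7% of all genes tested. Their median log2 difference was -0.86. No share of genes with a difference below 0 is given beside the count of 9. Skap2, an adaptor protein gene, lies on the Hoxa2 side and had 77.6 and 57.5 FPKM in the JNK_WT lines, against 23.2 and 34.0 FPKM in the JNK_KO lines, with a log2 difference of -1.22 (SE 0.31, limma adjusted p 0.451). Hibadh, which encodes a mitochondrial enzyme of valine breakdown, had a log2 difference of -0.92 (SE 0.33, limma adjusted p 0.634). Tax1bp1, for an autophagy receptor, had one of -0.98 (SE 0.25, limma adjusted p 0.440), and Snx10 one of -0.70 (SE 0.26, limma adjusted p 0.645). Evx1, the homeobox gene that adjoins Hoxa13, was listed at 0 in all 4 libraries. Jazf1, which was not tested, was higher in the JNK_KO lines, at 0.394 and 0.140 FPKM against 0.0425 and 0.0757 FPKM in the JNK_WT lines.

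The lower values extended along chromosome 6. Its 620 tested genes outside the cluster had a median log2 difference of -0.58, the lowest of 20 chromosomes, and the medians of the others lay between -0.41 and 0.19. After subtraction of the chromosome 6 median the differences were -0.37 for Hoxa2, -1.45 for Hoxa3, -1.17 for Hoxa4 and -1.84 for Hoxa5. On log2(FPKM + 1) the difference of a gene near 1 FPKM is understated, and Hoxa2 was 9.36-fold apart on average. The remainders are therefore not on a like scale with a median over genes of higher level. For the neighbours of the other clusters, medians within 1 Mb were -0.20 beside Hoxb, -0.19 beside Hoxc and 0.20 beside Hoxd, where the chromosome medians outside the clusters were -0.20, -0.0018 and 0.12. Beside Hoxc the groups did not overlap for 12 of the 31 tested neighbours with JNK_KO lower and for 2 with JNK_KO higher, where 16.7% and 18.3% of all genes tested did so.

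**Figure D4:**
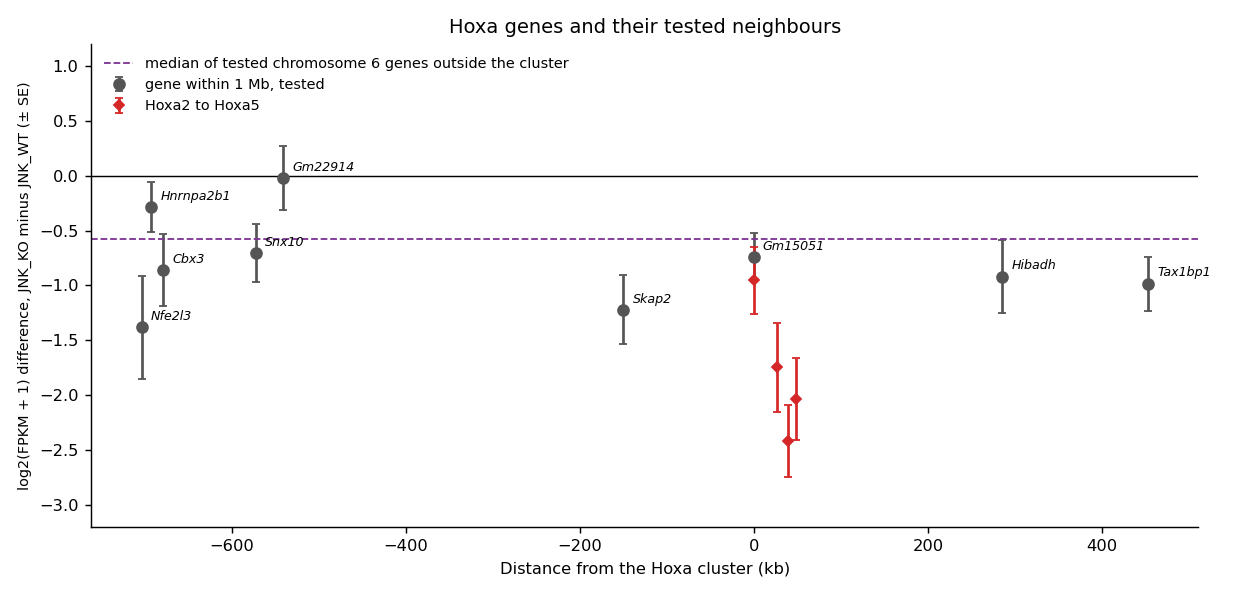
Log2 difference on log2(FPKM + 1), JNK_KO minus JNK_WT, with its standard error, for Hoxa2 to Hoxa5 (red diamonds) and for the 9 tested genes within 1 Mb of the cluster (grey circles), against distance in kb. The dashed line is the median of the tested chromosome 6 genes outside the cluster, -0.58, and Hoxa3, Hoxa4 and Hoxa5 lay below every neighbour shown.

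In the Hoxb cluster (chromosome 11, 96194316 to 96368256, plus strand) values above 0.21 FPKM were confined to JNK_KO replicate 3 and to Hoxb2, Hoxb3 and Hoxb4. Hoxb2, which acts in the hindbrain, had the highest mean of the cluster, with 1.34 FPKM in JNK_KO replicate 3, and was listed at 0 in the other 3 libraries. Hoxb3 was measured at 0.367 FPKM in JNK_KO replicate 3 and was listed at 0 in the other 3. Hoxb4, known for its action in blood stem cells, was measured at 0.0179 and 0.00757 FPKM in the JNK_WT lines, against 0.135 and 0.922 FPKM in JNK_KO replicates 1 and 3.

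Hoxb3os lies on the opposite strand and shares 2250 exon bases, 52.9% of the Hoxb3 exons, with Hoxb3 and 953 with Hoxb2. It followed the same pattern, with 1.06 FPKM in JNK_KO replicate 3, 0.0195 FPKM in JNK_KO replicate 1 and 0 in the JNK_WT libraries. The JNK_KO to JNK_WT ratio of the Hoxb sums, 9.40 with all libraries, was 1.90 without JNK_KO replicate 3, 16.9 without JNK_KO replicate 1 and 18.2 without JNK_WT replicate 2. No Hoxb gene passed the filter, so none was tested. Of the posterior members, Hoxb9 was highest in JNK_WT replicate 2, at 0.207 FPKM, and Hoxb13 was listed at 0 throughout. The microRNA gene Mir196a-1, 102 bases long, had 21.1 FPKM in JNK_WT replicate 2 and 0 in the other 3 libraries.

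In the Hoxc cluster (chromosome 15, 102921103 to 103036852) 4 of the 9 genes, Hoxc5, Hoxc10, Hoxc11 and Hoxc12, were listed at 0 in all libraries, and the highest value was 0.105 FPKM, for Hoxc9 in JNK_KO replicate 1. Hotair, the long noncoding RNA gene of this cluster, was listed at 0 in all 4 libraries. In the Hoxd cluster (chromosome 2, 74668310 to 74765142) Hoxd1 and Hoxd12 were listed at 0 in all libraries. Hoxd8, the highest member, was measured at 0.111 FPKM in JNK_WT replicate 1, 0 in JNK_WT replicate 2, and 0.223 and 0.134 FPKM in JNK_KO replicates 1 and 3. None of these genes was tested. The lowest Hox value above 0 in a library was between 0.00608 and 0.00845 FPKM, so that 1 FPKM was 118 to 165 times the lowest value, and differences among values of this size were not resolved.

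Of 8 TALE genes, the partners of Hox proteins, 7 reached 1 FPKM in JNK_WT replicate 1 and in each JNK_KO library and 6 in JNK_WT replicate 2. Of these genes 7 were tested and 0 were called by limma, with 0 at an unadjusted p under 0.05. Meis1, a DNA-binding partner of Hox proteins, had 2.36 and 3.44 FPKM in the JNK_WT lines, against 1.63 and 2.55 FPKM in the JNK_KO lines, and its groups overlapped. The largest difference was that of Meis3, 0.77 (SE 0.55, limma adjusted p 0.920). It alone of the 7 was past 0.75 in either direction, beside 15.7% of all genes tested. Pknox2, which was not tested, was measured at 0.0225 and 0 FPKM in the JNK_WT lines, against 0.618 and 0.634 FPKM in the JNK_KO lines.

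All 27 Polycomb genes examined were tested. None was called by limma, 4 had an unadjusted p under 0.05, 3 were lower in JNK_KO by over 0.75 and 1 was higher by over 0.75, where 6.43% of all genes tested were lower and 9.25% higher by that much. The 3 lower genes and the next lowest all lie on chromosome 6, as Hoxa does. The gene after these, Pcgf2 on chromosome 11, had a nearly equal difference to the last of them, -0.71 (SE 0.35, limma adjusted p 0.800). In the list the groups did not overlap for 7 genes with JNK_KO lower and for 3 with JNK_KO higher, where 16.7% and 18.3% of all genes tested did so. Of the 7, Pcgf2, Phc2 and Pcgf3 lie on chromosomes 11, 4 and 5. Phc1, a subunit of Polycomb repressive complex 1, had a log2 difference of -0.99 (SE 0.23, limma adjusted p 0.413). Ezh2, the histone H3 lysine methyltransferase of the other Polycomb complex, was measured at 77.3 and 64.1 FPKM in the JNK_WT lines, against 34.5 and 37.1 FPKM in the JNK_KO lines, a log2 difference of -0.96 (SE 0.23, limma adjusted p 0.430). Aebp2, an accessory subunit of the Ezh2 complex, had a difference of -0.84 (SE 0.22, limma adjusted p 0.458), and Pcgf1 one of -0.72 (SE 0.28, limma adjusted p 0.669). Cbx7, a reader of the Polycomb mark on chromosome 15, was higher in both JNK_KO libraries, at 27.1 and 33.7 FPKM against 12.3 and 19.3 FPKM, a difference of 0.92 (SE 0.33, limma adjusted p 0.626).

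Of 16 Trithorax and related genes, all tested, 0 were called by limma, 0 had an unadjusted p under 0.05 and 0 were past 0.75 in either direction. The largest difference was that of Psip1, 0.62 (SE 0.29, limma adjusted p 0.753). Of 18 genes for known Hox inducers, 9 were tested, 0 were called by limma and 0 had an unadjusted p under 0.05. Cdx1, Cdx2 and Cdx4, the caudal homeobox factors, stayed at or under 0.0175 FPKM in all lines. Rarg, a retinoic acid receptor, was measured at 70.4 and 76.8 FPKM in the JNK_WT lines, against 58.2 and 59.9 FPKM in the JNK_KO lines. Crabp1, a retinoic acid binding protein, had the largest difference of the list, 1.25 (SE 0.74, limma adjusted p 0.860), from 6.95 FPKM in JNK_KO replicate 1 beside 0.394 to 1.08 FPKM in the other libraries.

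Other homeobox and T-box genes of position were examined for comparison. Of 26 genes, 11 were tested, 0 were called by limma and 1 had an unadjusted p under 0.05. That gene was Prrx1, a homeobox gene of limb and craniofacial mesenchyme, which was measured at 5.93 and 6.80 FPKM in the JNK_WT lines, against 41.0 and 20.7 FPKM in the JNK_KO lines, a log2 difference of 2.04 (SE 0.41, limma adjusted p 0.331). Irx3 and Irx5, adjacent Iroquois genes, had differences of 1.97 (SE 1.07) and 1.31 (SE 1.06), and Tbx15 and Shox2 had differences of -1.76 (SE 0.90) and -1.20 (SE 1.0). The JNK_WT and JNK_KO values overlapped for Irx3, Irx5 and Shox2.

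**Figure D5:**
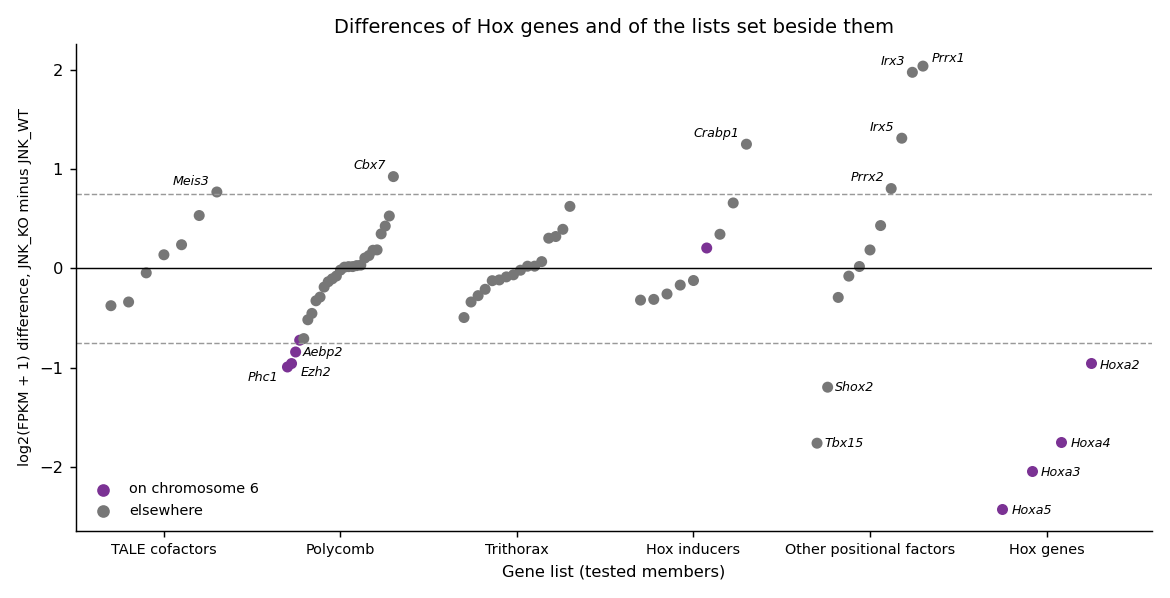
Log2 difference on log2(FPKM + 1), JNK_KO minus JNK_WT, of the tested genes of 5 lists and of the tested Hox genes, with 1 point per gene, genes on chromosome 6 in purple and dashed lines at a difference of 0.75 in either direction. The 4 Hox genes lay between -0.96 and -2.42, and each entered the test only because it was above 1 FPKM in the JNK_WT libraries. The 4 lowest Polycomb genes were on chromosome 6, and the next, Pcgf2 at -0.71, was on chromosome 11.

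The labels and the cell type were checked in the same libraries. Mapk8 was measured at 23.9 and 19.1 FPKM in the JNK_WT lines, against 4.30 and 4.27 FPKM in the JNK_KO lines, and Mapk9 at 29.7 and 24.3 FPKM against 12.6 and 8.66 FPKM. Trp53, whose floxed exons had been removed in both groups, had 1.55 to 5.72 FPKM as a value for the whole gene, which does not check the loss of some of its exons. All 10 luminal epithelial markers were at or above 1 FPKM in every library, with summed levels of 4113 and 3204 FPKM in the JNK_WT lines, against 1355 and 2848 FPKM in the JNK_KO lines. Of 12 fibroblast and mesenchymal markers, 3 and 2 reached 1 FPKM in the JNK_WT libraries, and 5 and 9 in JNK_KO replicates 1 and 3. Their summed levels were 345 and 52.1 FPKM in the JNK_WT lines, against 612 and 364 FPKM in the JNK_KO lines, of which Vim alone gave 331, 47.2, 500.4 and 159 FPKM in that order of libraries. Of the 12, 7 were tested, 0 were called by limma, 4 had an unadjusted p under 0.05 and 6 were higher in JNK_KO by over 0.75, which 9.25% of all genes tested were. The 4 were Dcn, Pdgfra, Pdgfrb and Fbn1, and each entered the test only because it was above 1 FPKM in the JNK_KO libraries. These counts are therefore not read against the share over all genes. Dcn, for the matrix proteoglycan decorin, was at 79.7 and 162 FPKM in the JNK_KO lines and under 0.44 FPKM in JNK_WT cells, with a limma adjusted p of 0.0554. Pdgfra, a growth factor receptor of mesenchymal cells, was at 24.7 and 7.82 FPKM in the JNK_KO lines and at 0.325 and 0.183 FPKM in the JNK_WT lines. The groups also did not overlap, with JNK_KO higher, for Pdgfrb, Fbn1 and Thy1, which were 22.0-fold, 5.45-fold and 10.9-fold apart on average. Col1a2, also tested, went the other way on average, with a log2 difference of -0.68 (SE 1.12). It was measured at 10.3 and 0.374 FPKM in the JNK_WT lines, against 0.698 and 2.56 FPKM in the JNK_KO lines, and its groups overlapped. Col1a1 stayed under 0.53 FPKM and Lum under 0.01 FPKM in all 4. The part of these markers in the Hoxa and Hoxb values was not tested. Basal and myoepithelial markers divided the lines differently, with 3 of 9 at 1 FPKM or more in JNK_WT replicate 1, 7 in JNK_WT replicate 2 and 4 in each JNK_KO library, and summed levels of 26.3, 736, 38.6 and 376 FPKM in that order of libraries. Of 6 leukocyte markers, 3, 2, 2 and 3 reached 1 FPKM in that order of libraries, with summed levels of 33.8, 237, 128 and 149 FPKM, of which Cd14 gave 11.9, 233, 125 and 140 FPKM. Cd68 was measured at 2.65 to 19.95 FPKM and Csf1r at up to 1.82 FPKM, while Ptprc, which marks leukocytes in general, was at or under 0.0134 FPKM. Of 6 endothelial and 5 adipocyte markers 0 reached 1 FPKM in any library.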

How the data were processed

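The authors prepared RNA from the 4 cell lines with an Illumina TruSeq kit, trimmed reads with Trimmomatic, sampled libraries to a similar read number with seqtk, aligned reads to GRCm38 with TopHat2 2.0.14 and Bowtie2, and computed FPKM with Cufflinks 2.2.1. The deposited table held 1 FPKM value per gene and line, and read depth was not used here. Of 38741 rows, 27 with symbols turned into dates and 1 without values were left out.

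Genes at 1 FPKM or more in at least 2 libraries (12998) were tested on log2(FPKM + 1) with limma 3.58.1 in R 4.3.3 (lmFit, eBayes with an intensity trend, two-sided, Benjamini-Hochberg adjustment), after a check on simulated data. Cuffdiff, the study's test, needs alignments and was not run. Fold changes on this scale understate those of low genes. Each line gave 1 library, so p-values measure the spread between lines. The labels name no sequencing batch. Positions came from GENCODE M21 (GRCm38), matched by symbol, and promoter sequences from RefSeq (GRCm38.p6). The members and gene lists were chosen with earlier results of these data known.

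Values in each library were given for members at 1 FPKM or more in any library, SE and adjusted p for tested members past 0.75, at most 5 genes per list by absolute difference, and flanking genes of fixed lists. Of the noncoding list, 9 of 18 symbols were found and 0 were tested. A member and 2 genes of the lists are not reported here, and only fits and counts over all genes or a chromosome include them. Other members, opposite-strand genes, cell type markers, the Polycomb genes Pcgf2, Phc2 and Pcgf3 and genes of low level were named after their values were seen. Figures were drawn with matplotlib 3.10.9 in Python 3.11.15.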

Additional observations from a re-analysis of the deposited data

How the results depend on the processing

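No Hox gene and no gene of the cofactor, chromatin, inducer, positional, noncoding and flanking lists was called by limma under any setting run, which were pseudocounts of 0.1 and 0.5, no filter, quantile normalization, upper quartile scaling, variance models without a trend or robust to outliers, an adjusted p under 0.1, no difference threshold, and each library left out. A filter at a mean of 5 FPKM left 0 Hox genes, so it gave no value for them. All 36 recomputed differences of Hoxa2 to Hoxa5 stayed below 0, with a smallest limma adjusted p of 0.199. Their median, -1.89, was -3.61 with a pseudocount of 0.1, -2.47 with 0.5, by the construction of the scale, and 0.012 with no filter, where 29 Hox genes entered. With no filter 12 of these 29 had groups that did not overlap, in place of 4, with 6 lower and 6 higher in JNK_KO. Over all 38713 genes, which include those at 0 throughout, the shares were 9.05% and 12.0%. The median of all genes tested was 0.013. Hoxa2 to Hoxa5 entered the test only because they were above 1 FPKM in the JNK_WT libraries. Neither their common sign nor their median is therefore read against all genes. Alternatives on sums and on the 37 members were chosen after seeing the data. With each library left out, the Hoxa2 to Hoxa7 ratio was 12.1 to 24.6 and the Hoxb ratio 1.90 to 18.2. The count of members lower in JNK_KO without overlap was then 6 to 8 and of members higher 8 to 16. With 1 library left in a group, groups separate more easily, and no share over all genes is given beside these counts. At 0.5 FPKM, 6, 5, 0 and 3 members were detected in JNK_WT replicates 1 and 2 and JNK_KO replicates 1 and 3, and at 5 FPKM 1, 1, 0 and 0. Calls in the lists at an adjusted p under 0.1 and without the difference threshold were added after seeing the data, and the cell type lists were not recomputed. No paired analysis was possible because 1 is the only number that occurs in both groups.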
